A study of Mus musculus with 6 samples.

Results

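This report covers 10 human genes that mark prostate epithelium, the lineage transcription factors FOXA1, HOXB13 and SPDEF, the cell surface genes FOLH1, STEAP1, STEAP2, SLC45A3 and TRPM8, and the enzymes ACP3 and AMACR. They were chosen by name, not by their values, though with earlier results of these data known. All 10 were found by Ensembl identifier among the 60649 genes of the count table. They also passed the filter of 10 reads summed over the tumors. RNA was sequenced from 6 tumors of LAPC-4, a hormone-sensitive human prostate cancer line with wild-type androgen receptor, grown in the flank of male CB.17 scid/scid mice bought at 6 to 8 weeks of age. All mice first ate the HiGI diet and were single-housed and randomized when tumors averaged 200 mm3. The HiGI group (tumors 16, 20 and 26) then stayed on a Western diet with sucrose as its main carbohydrate, and the LoGI group (tumors 19, 27 and 28) received one built on high-amylose starch and maltodextrin. Both diets supplied 48% of energy as carbohydrate. The model is a single cell line in a host that lacks B and T cells, and each tumor came from its own mouse.

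Prostate luminal cells are set apart by a small group of transcription factors that work with the androgen receptor. FOXA1 is a pioneer factor that opens chromatin for it, HOXB13 is a homeobox factor of the posterior HOXB cluster that binds many of the same sites, and SPDEF is an ETS-family factor of secretory epithelium. Luminal cells also carry surface proteins and enzymes that are used to image, stain or target prostate cancer, among them FOLH1 (prostate-specific membrane antigen) and ACP3 (prostatic acid phosphatase). Whether a change in carbohydrate quality is accompanied by a change in these genes is the question the diet comparison addresses here.

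Libraries held 18749813 to 21550812 counted reads, and the fewest were in HiGI tumor 26. Pairs of tumors from the same diet differed by more than counting noise (chi-square per degree of freedom 4.91 to 12.5, where repeat counts of a library give about 1), so that no tumor was a repeat of another. Pairs from different diets differed more, at 15.5 to 28.2. Both ranges cover only genes that reached a minimum of reads in the pair compared, so the genes can differ between pairs. Values are CPM, reads per 1000000 reads of the library after TMM scaling, whose factors lay between 0.964 and 1.03. The genes most often taken to define luminal, basal or stromal cells were not looked up, because the count table holds no gene symbols. Cell identity was therefore not examined beyond the reads on the 10 genes, all of which were read in every tumor. Their presence alone does not establish prostate identity, since no other tissue was compared. Together the 10 genes took 0.118% to 0.138% of the reads in HiGI tumors and 0.124% to 0.134% in LoGI tumors, ranges that overlapped.

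None of the 10 genes differed between diets at an adjusted p of 0.05 (quasi-likelihood test of edgeR, Benjamini-Hochberg over 24545 genes), a threshold passed by 4.73% of all genes tested. The count was also 0 at the study's threshold, which also asks for a log2 fold change of 1 or more, up or down, and was passed by 3.45% of genes. It was 0 with the DESeq2 Wald test (4.83% of all genes called) and with limma-voom (4.21%). At an unadjusted p of 0.05 in edgeR, 1 of the 10 genes (HOXB13) passed, against 13.3% of all genes. The CPM of the 3 LoGI tumors and the 3 HiGI tumors overlapped for every one of the 10. The diets did not overlap for 18.5% of all genes tested, and whether the 10 genes depart from that share was not tested. The median log2 fold change (LoGI over HiGI) was -0.020 for the 10 genes and 0.0034 for all tested genes, and 5 of the 10 values were negative. In bulk tumor RNA, fewer cells that express a gene and less RNA per cell cannot be told apart.

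**Figure D1:**
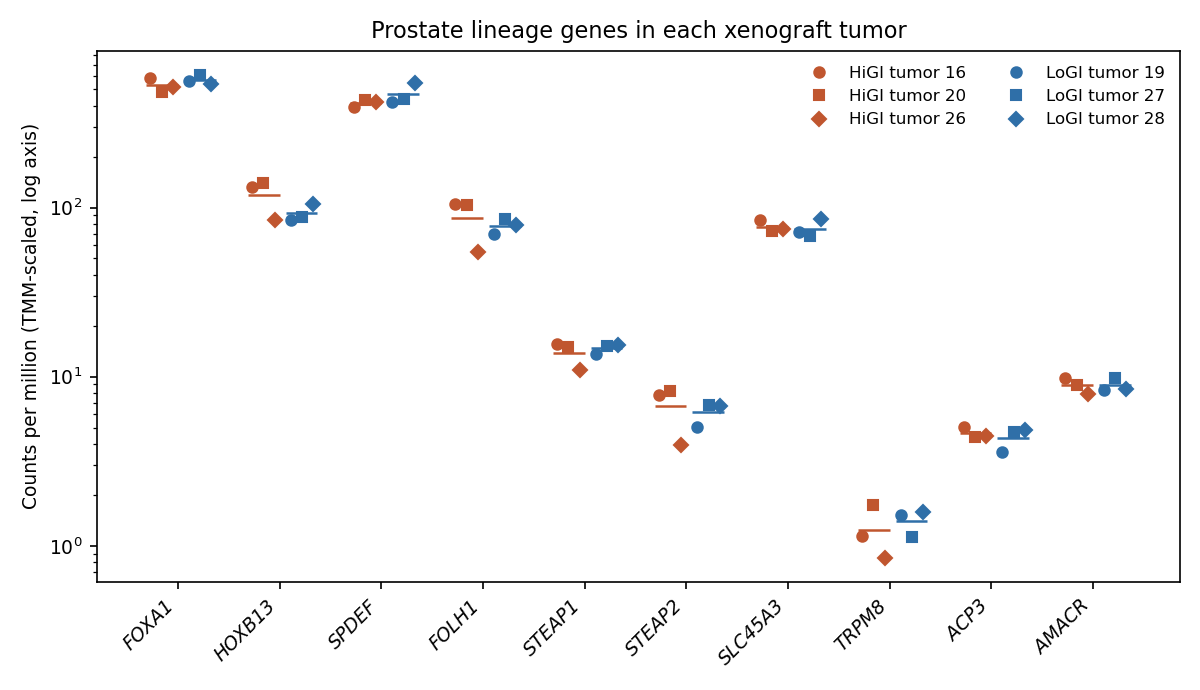
CPM of the 10 genes on a log axis, with 1 point per tumor (HiGI in orange, LoGI in blue) and a bar at the mean of each diet. The diets overlap for every gene, and HiGI tumor 26 lies below HiGI tumors 16 and 20 for HOXB13, FOLH1, STEAP1, STEAP2, TRPM8 and AMACR. Heights are not corrected for transcript length and are not to be compared between genes.

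Among the transcription factors, the highest tumor was 1.25 times the lowest for FOXA1 (ENSG00000129514.8) and 1.40 times for SPDEF (ENSG00000124664.11), against 1.66 times for HOXB13. FOXA1 stood at 580, 485 and 516 CPM in HiGI tumors 16, 20 and 26 and at 557, 608 and 540 CPM in LoGI tumors 19, 27 and 28, between 9710 and 12993 reads per tumor. LoGI tumor 27 was highest and HiGI tumor 20 lowest, and HiGI tumor 16 lay among the LoGI tumors. The mean was 527 ± 48.3 CPM (SD, n = 3) in HiGI and 568 ± 35.4 CPM (SD, n = 3) in LoGI tumors. The log2 fold change was 0.11 (adjusted p = 0.704, edgeR). SPDEF stood at 392, 431 and 422 CPM in HiGI tumors and at 419, 435 and 547 CPM in LoGI tumors. LoGI tumor 28 alone was set off, above the other 5, and the log2 fold change of 0.17 (adjusted p = 0.532, edgeR) fell to 0.042 without it.

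HOXB13 (ENSG00000159184.8) was the gene of the 10 with the smallest p. It stood at 133, 140 and 84.9 CPM in HiGI tumors 16, 20 and 26 and at 84.2, 88.3 and 105 CPM in LoGI tumors 19, 27 and 28. HiGI tumors 16 and 20 were above every LoGI tumor, while HiGI tumor 26 lay inside the LoGI range. The means of 119 ± 29.8 CPM (SD, n = 3) in HiGI and 92.3 ± 10.8 CPM (SD, n = 3) in LoGI tumors differed by -0.37 on the log2 scale, with a DESeq2 standard error of 0.15. The gene had an unadjusted p of 0.0261 and an adjusted p of 0.261 in edgeR's quasi-likelihood test fitted across all genes. Of all tested genes, 9.98% had a smaller p. The direction was negative under all 16 alternatives. The call changed under 2 of them: the adjusted p was 0.00623 when all genes with at least 1 read were tested with edgeR (4.24% of genes called) and 0.00368 without HiGI tumor 26.

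The same HOXB13, SPDEF and FOXA1 reads were also set against each other within each library, which needs no scaling between tumors. For each 1000 reads on SPDEF, HiGI tumors 16, 20 and 26 had 339, 324 and 201 on HOXB13. The LoGI tumors had 201, 203 and 191. HiGI tumor 26 thus had the ratio of the LoGI tumors, and HiGI tumors 16 and 20 the higher one. For each 1000 reads on FOXA1, the HiGI tumors had 229, 288 and 164 on HOXB13 and the LoGI tumors 151, 145 and 194, with the same HiGI tumor inside the LoGI range. These ratios reuse the reads behind the CPM values above, so they are not separate support. They were computed after the values were seen.

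FOLH1 (ENSG00000086205.18) encodes a surface carboxypeptidase that is the target of prostate cancer imaging and radioligands. It stood at 104, 103 and 54.4 CPM in HiGI tumors 16, 20 and 26 and at 69.7, 86.0 and 78.9 CPM in LoGI tumors 19, 27 and 28. The HiGI group held both the 2 highest tumors and the lowest tumor of the 6, so that the LoGI tumors lay between them. The log2 fold change was -0.16 (adjusted p = 0.816, edgeR), with a DESeq2 standard error of 0.31. The spread within HiGI tumors (coefficient of variation 32.6%) was far above the 2.36% that counting alone gives at this depth. FOLH1 has a near-identical copy in the human genome, and how RSEM shared reads between them was not examined.

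STEAP1 (ENSG00000164647.9) and STEAP2 (ENSG00000157214.14) are six-transmembrane proteins whose genes lie side by side in a cluster. STEAP2 is a metalloreductase that reduces iron and copper, and STEAP1 is an antigen of antibody and cell therapies. STEAP2 had nearly the order of tumors seen for FOLH1, with 7.81, 8.26 and 3.93 CPM in HiGI tumors 16, 20 and 26 and 5.04, 6.79 and 6.67 CPM in LoGI tumors 19, 27 and 28. HiGI tumor 26 was lowest and HiGI tumors 16 and 20 highest, on 74 to 170 reads per tumor, and the log2 fold change was -0.12 (adjusted p = 0.914, edgeR). STEAP1 stood at 15.6, 14.9 and 10.9 CPM in HiGI tumors and at 13.6, 15.3 and 15.4 CPM in LoGI tumors. HiGI tumor 26 was again lowest, but HiGI tumors 16 and 20 were level with LoGI tumors 27 and 28, and the log2 fold change was 0.095 (adjusted p = 0.879, edgeR). STEAP1 had 1.99, 1.81 and 2.77 reads for each STEAP2 read in HiGI tumors 16, 20 and 26, and 2.71, 2.25 and 2.31 in LoGI tumors 19, 27 and 28. The ratios of the diets overlapped, and their differences were not tested against counting error.

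SLC45A3 (prostein, ENSG00000158715.6) is a membrane transporter of the prostate whose promoter region is a known fusion partner of ETS genes. It varied little, at 83.9, 72.6 and 74.3 CPM in HiGI tumors and 71.8, 67.4 and 85.2 CPM in LoGI tumors. The diets were interleaved, and the log2 fold change was -0.041 (adjusted p = 0.932, edgeR). TRPM8 (ENSG00000144481.17), a cation channel opened by cold and menthol, was read thinly. HiGI tumors 16, 20 and 26 had 25, 35 and 16 reads on it, and LoGI tumors 19, 27 and 28 had 29, 24 and 30. Its CPM lay between 0.851 and 1.74, and the 95% Clopper-Pearson interval of its lowest tumor (0.488 to 1.39 CPM, before TMM scaling) overlapped that of its highest (1.22 to 2.43). No difference between diets was detected on these few reads (log2 fold change 0.16, adjusted p = 0.907, edgeR), and the part of depth in this was not tested.

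For the enzymes, no difference between diets was detected either. ACP3 (ENSG00000014257.16), a secreted and membrane-bound phosphatase, stood at 5.06, 4.43 and 4.47 CPM in HiGI tumors and 3.57, 4.68 and 4.83 CPM in LoGI tumors. LoGI tumor 19 was lowest, on 68 reads, and the remaining 5 tumors were close together (log2 fold change -0.093, adjusted p = 0.914, edgeR). AMACR (ENSG00000242110.8), the racemase that prepares branched-chain fatty acids for oxidation and a stain for prostate cancer, had 9.84, 8.96 and 7.87 CPM in HiGI tumors and 8.34, 9.83 and 8.51 CPM in LoGI tumors. Its means were 8.89 ± 0.986 CPM (SD, n = 3) in HiGI and 8.89 ± 0.815 CPM (SD, n = 3) in LoGI tumors, and its direction changed sign with the scaling and the filter.

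The precision that 3 tumors per diet give was read from limma-voom's 95% intervals, which are not adjusted for the number of genes. For all 10 genes the interval lay inside a log2 fold change of 1 in either direction. The narrowest was that of FOXA1, from 0.960- to 1.22-fold (LoGI over HiGI), followed by SPDEF, from 0.974- to 1.29-fold, and SLC45A3, from 0.830- to 1.13-fold. STEAP1 ran from 0.865- to 1.34-fold, AMACR from 0.802- to 1.25-fold, ACP3 from 0.705- to 1.23-fold and FOLH1 from 0.700- to 1.23-fold. The widest were STEAP2, from 0.662- to 1.38-fold, and TRPM8, from 0.716- to 1.84-fold. HOXB13 was the only gene of the 10 whose interval left out equality, from 0.627- to 0.990-fold, with an adjusted p of 0.345 in limma-voom.

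**Figure D2:**
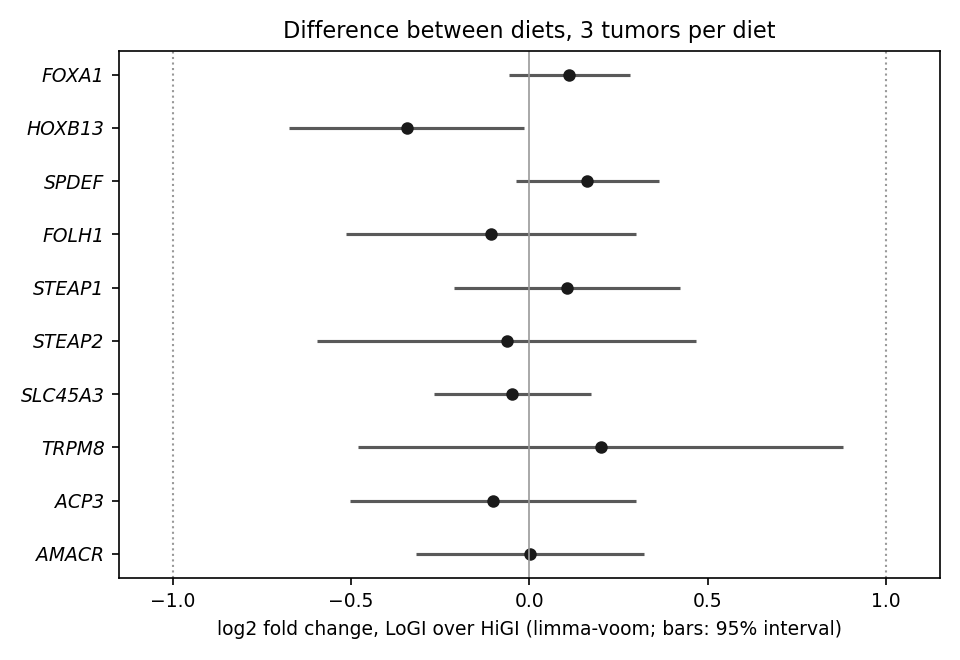
Log2 fold change (LoGI over HiGI) of the 10 genes from limma-voom with its 95% interval, 3 tumors per diet, and dotted lines at a log2 fold change of 1 in each direction. Every interval lies between the dotted lines, and that of HOXB13 ends just below 0.

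For FOLH1, STEAP1, STEAP2, TRPM8 and AMACR, the highest and the lowest of the 6 tumors both lay within the HiGI group. This did not hold for the other members. HiGI tumor 26 was the lowest of the 6 for 5 genes (FOLH1, STEAP1, STEAP2, TRPM8 and AMACR), a place it held for 16.1% of the 15993 genes with at least 100 reads summed. For TRPM8 and AMACR its counting interval overlapped that of the highest tumor. For STEAP1 and STEAP2 it overlapped that of LoGI tumor 19, the next lowest. HiGI tumor 26 was the lowest of the 3 HiGI tumors for those 5 genes and HOXB13, 6 of the 10, against 32.1% of the 15993 genes. Its level relative to the mean of HiGI tumors 16 and 20 was 0.490 for STEAP2, 0.525 for FOLH1, 0.589 for TRPM8, 0.623 for HOXB13 and 0.714 for STEAP1. The same ratio was 0.970 for FOXA1, 1.03 for SPDEF, 0.949 for SLC45A3 and 0.942 for ACP3, so that the gap did not run through the whole group. Over the same 15993 genes, the median ratio was 0.996 and the 5th percentile 0.639, and 4 of the 10 genes lay under that percentile. HiGI tumors 16 and 20 were both above all other tumors for HOXB13, FOLH1 and STEAP2, a pattern held by 9.85% of those 15993 genes. This tumor was singled out after the values were seen. It also had the smallest library, and the part of depth in the gap was not tested.

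**Figure D3:**
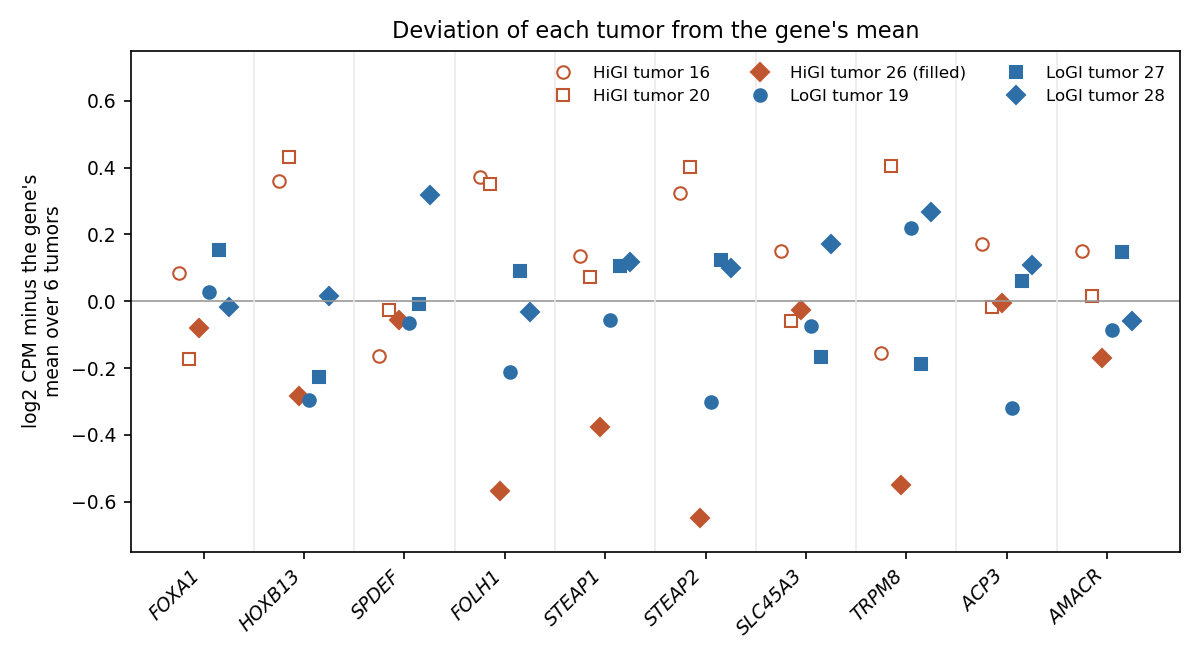
Log2 CPM of each tumor minus the gene's mean over the 6 tumors, for the 10 genes (HiGI in orange, LoGI in blue). HiGI tumor 26 (filled orange diamond) lies at -0.57 for FOLH1 and -0.65 for STEAP2, while HiGI tumors 16 and 20 lie above 0 for both.

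Spread between tumors was larger in HiGI than in LoGI for 7 of the 10 genes, against 51.6% of the 15993 genes with at least 100 reads summed. The coefficient of variation for HOXB13 was 25.0% in HiGI and 11.7% in LoGI tumors, and for STEAP1 it was 18.4% and 6.61%. The order was the other way round for SPDEF (4.94% in HiGI and 14.9% in LoGI), SLC45A3 (7.92% and 12.4%) and ACP3 (7.57% and 15.9%). The difference in spread was not tested. In the LoGI group, tumor 19 was the lowest of the 3 for 7 of the 10 genes, a place it held for 31.4% of those 15993 genes. For each of these 7, its counting interval overlapped that of the next lowest LoGI tumor. LoGI tumor 19 was also singled out after the values were seen.

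Leaving out HiGI tumor 26 changed the comparison for HOXB13 and FOLH1. With HiGI tumors 16 and 20 against the 3 LoGI tumors, HOXB13 was lower in LoGI tumors with a log2 fold change of -0.56 (adjusted p = 0.00368, edgeR) and FOLH1 with one of -0.40 (adjusted p = 0.0418, edgeR). In this fit 2 of the 10 genes were called, both lower in LoGI tumors, where 5.19% of 23808 tested genes were called in either direction and 4.65% were lower. Both were also called without this tumor in limma-voom (adjusted p = 0.00372 and 0.0376, with 5.09% of all genes called) and in the DESeq2 Wald test (adjusted p = 0.000405 and 0.0290, with 4.68%). Those further tests used the same tumors and were chosen after the values were seen, so they are not separate support. HiGI tumor 26 was the lowest HiGI tumor for both genes, and leaving it out raised the HiGI mean of both. STEAP2 had a log2 fold change of -0.38 in the same edgeR fit and was not called (adjusted p = 0.397). FOXA1, SPDEF, SLC45A3 and ACP3 kept their direction without this tumor, and STEAP1, TRPM8 and AMACR turned to small negative values of -0.044, -0.036 and -0.075. Without any one of the other 5 tumors, none of the 10 genes was called in edgeR, and the smallest adjusted p was 0.148. Among the alternatives run, FOLH1 was called only without HiGI tumor 26, while HOXB13 was also called with all 6 tumors when genes with at least 1 read were tested. Nothing in the sample records sets that tumor apart from its group.

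**Figure D4:**
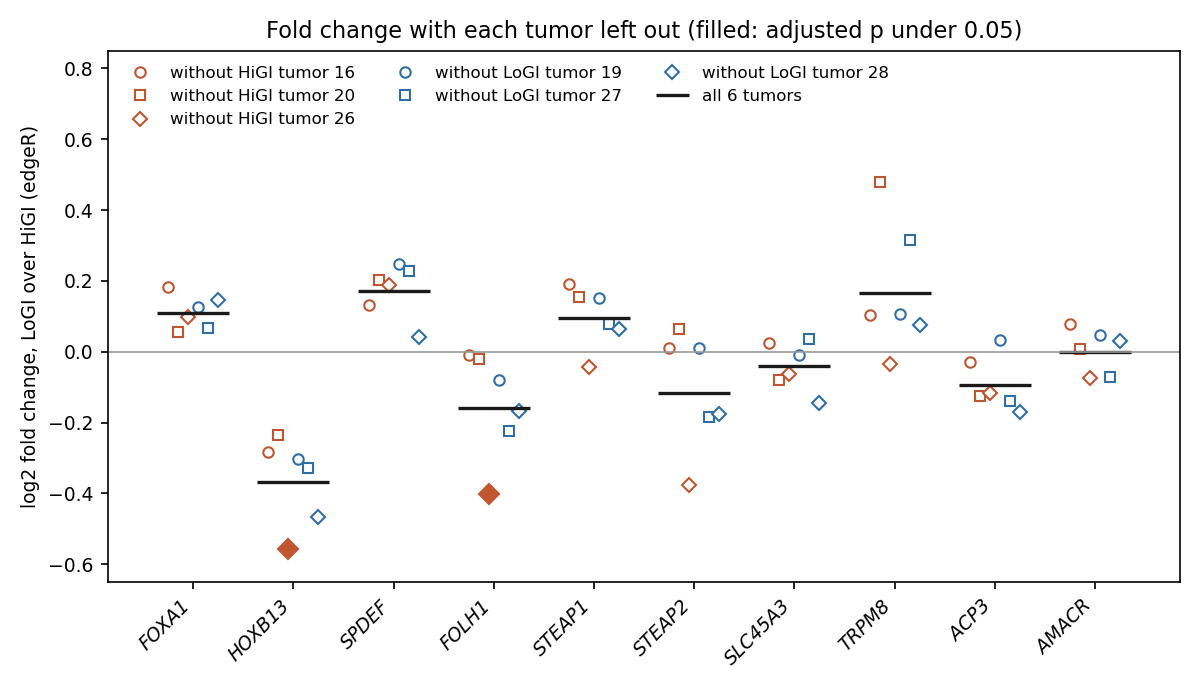
Log2 fold change (LoGI over HiGI, edgeR) of the 10 genes with each tumor left out in turn, and a black bar for all 6 tumors. Filled symbols mark an adjusted p under 0.05, which is reached only without HiGI tumor 26, for HOXB13 (-0.56) and FOLH1 (-0.40).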

How the data were processed

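Gene expression was measured in 6 xenograft tumors, 3 per diet. The authors dropped mouse-only reads after BBMap, then ran STAR and RSEM against human GRCh38.p13 with GENCODE genes. The deposited counts are whole numbers per Ensembl gene, not normalized. How RSEM estimates became whole numbers, and the tool versions, are not given in the sources used here. The sample records name the organism as mouse, and the counts were read as human. Tumors were grouped by the treatment recorded for each sample, and 0 columns were left unmatched.

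Diets were compared with edgeR 4.0.16 in R 4.3.3 (TMM, glmQLFit and glmQLFTest, Benjamini-Hochberg over all tested genes) on genes whose reads in the 6 tumors came to 10 or more. The study names edgeR and its thresholds but no filter. Intervals came from limma-voom (limma 3.58.1) and standard errors from DESeq2 1.42.0. The test was checked on simulated data. Counting intervals cover counting error only.

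All 10 genes were named by rule. The genes and lists were chosen with earlier results of these data known. Symbols of the 10 genes came from the list that defined them. Further gene lists, cell type markers, gene lengths and sequences needed a human gene table and were not used here. The alternatives were other scalings, filters, tests and prior count, and leaving out each tumor.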

Additional observations from a re-analysis of the deposited data

How the results depend on the processing

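No member of the 10 genes was called in 14 of the 16 alternatives to the edgeR test of 6 tumors. One gene, HOXB13, was called with all genes of at least 1 read, so the count was 1, and the cause was not tested. Over the fits that each left out a tumor the count ranged from 0 to 2, the latter without HiGI tumor 26. It was also 2 without that tumor in limma-voom and in the DESeq2 Wald test, both chosen after seeing the data, and 0 at a log2 fold change of at least 1. The log2 fold change of AMACR, near 0 with all 6 tumors, became -0.041 with library totals only, -0.0022 with filterByExpr and -0.010 where each tumor had to hold 10 reads. It ranged from -0.075 to 0.080 over the fits that each left out a tumor. The same fits gave -0.38 to 0.065 for STEAP2, -0.15 to 0.037 for SLC45A3, -0.044 to 0.19 for STEAP1, -0.036 to 0.48 for TRPM8 and -0.17 to 0.033 for ACP3, each on both sides of 0. FOXA1, HOXB13, SPDEF and FOLH1 kept their direction in every alternative. The direction of FOLH1 was not firm, since the fits that each left out a tumor gave -0.40 to -0.010, the latter close to 0. Those fits gave 0.054 to 0.18 for FOXA1, -0.56 to -0.24 for HOXB13 and 0.042 to 0.25 for SPDEF. Of 160 values in these alternatives, 144 kept direction and side of the threshold, 13 changed sign and 3 passed the threshold where the value from 6 tumors did not. The lists of related genes and the order of the 10 genes by reads per length were not run, since no human gene table was used. No paired analysis was run, because each tumor came from its own mouse and the sample records pair no tumors. Depth limits TRPM8 most, with 16 to 35 reads per tumor.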

Other observations

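The biological coefficient of variation that edgeR estimated for each gene can be set beside the trend for genes of the same abundance. It was 15.8% for FOLH1, where the trend was 9.34%, 13.2% for HOXB13 (trend 9.14%) and 19.8% for STEAP2 (trend 15.4%). FOXA1 (8.47%, trend 8.76%), SLC45A3 (9.56%, trend 9.41%) and STEAP1 (12.4%, trend 12.3%) were close to their trend, and ACP3 (14.4%, trend 16.5%) and AMACR (12.3%, trend 13.9%) were under it. SPDEF (9.42%, trend 8.78%) was a little above its trend, and TRPM8 (20.9%, trend 21.3%) was close to it. These estimates come from the same 6 tumors as the levels above and carry no test.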
